A study of Homo sapiens with 14 samples.

Results

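The Sprouty and SPRED feedback inhibitors were followed in WM9, an established human melanoma cell line, through 5 genes: SPRY1, SPRY2, SPRY4, SPRED1 and SPRED2. Every probe that the platform annotation assigns to one of these symbols was taken, which gave 10 of 47322 probes: 3 for SPRY1, 1 for SPRY2, 4 for SPRY4 and 1 each for SPRED1 and SPRED2. Transcript levels were measured on 14 one-colour Illumina arrays in 7 groups of 2 arrays, described by the submitters as biological replicates. In 6 groups the cells received 10 µM PLX4720, a small molecule that inhibits the BRAF kinase, for 12, 24, 48, 60, 72 or 96 h. The only control group was kept with the solvent DMSO for 96 h. Time in culture and drug therefore cannot be told apart in the comparisons of 12 to 72 h with it. The study's title concerns oxidative phosphorylation and senescence under BRAF inhibition, and all groups come from 1 cell line, so other melanoma cells were not covered.

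Sprouty and SPRED proteins are brakes on the RAS, RAF, MEK and ERK cascade. ERK activity raises the transcription of several of them, and the proteins then damp the pathway that induced them. Sprouty proteins carry a cysteine-rich carboxy-terminal domain that holds them at the membrane and a short amino-terminal motif with a tyrosine that binds the ubiquitin ligase CBL, and they interfere with signalling from growth factor receptors to RAS. SPRED proteins share the cysteine-rich domain and add an EVH1 domain, through which they bind neurofibromin, the product of NF1, and bring it to the membrane, where it switches RAS off. In melanoma cells with a mutated BRAF kinase, ERK signalling runs without receptor input and these transcripts can be kept high. Inherited loss of SPRED1 causes Legius syndrome, which shows in pigmented skin spots.

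The genes lie on different chromosomes in RefSeq's annotation of GRCh38.p14: SPRY1 at chr4:123396795-123403760, SPRY2 at chr13:80335976-80341126, SPRY4 at chr5:142310430-142325021, SPRED1 at chr15:38252836-38357249 and SPRED2 at chr2:65307175-65432599. RefSeq gives 9 promoter windows for them, each reaching from 250 bases before to 50 bases after a transcript start. They were searched on both strands for 4 motifs of transcription factors that act downstream of growth factor and ERK signals, none of which overlapped another in these windows. The ETS motif CCGGAAG was in 1 of the 9 windows, against 10.3% of all 35116 windows, and the AP-1 motif TGACTCA was in 1 of the 9, against 4.95% of all. The cyclic AMP response element TGACGTCA was in 0 of the 9 and in 1.85% of all windows, and the EGR motif GCGTGGGCG in 0 of the 9 and in 0.795% of all. Both windows with a match are printed with the match in capitals, beside the single window of SPRY4, a gene with a large fall under PLX4720, in which none of the 4 motifs was found. Each is read 5′ to 3′ along the gene's own strand, which is the plus strand for SPRY1 (chr4:123398136-123398435) and the minus strand for SPRED2 (chr2:65366729-65367028) and SPRY4 (chr5:142324198-142324497).
SPRY1 ETS: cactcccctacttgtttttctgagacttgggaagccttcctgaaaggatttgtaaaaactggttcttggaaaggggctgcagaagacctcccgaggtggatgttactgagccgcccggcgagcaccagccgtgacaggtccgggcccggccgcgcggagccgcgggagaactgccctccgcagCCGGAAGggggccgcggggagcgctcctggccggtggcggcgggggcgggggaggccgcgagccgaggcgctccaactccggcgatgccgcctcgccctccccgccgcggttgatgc
SPRED2 AP-1: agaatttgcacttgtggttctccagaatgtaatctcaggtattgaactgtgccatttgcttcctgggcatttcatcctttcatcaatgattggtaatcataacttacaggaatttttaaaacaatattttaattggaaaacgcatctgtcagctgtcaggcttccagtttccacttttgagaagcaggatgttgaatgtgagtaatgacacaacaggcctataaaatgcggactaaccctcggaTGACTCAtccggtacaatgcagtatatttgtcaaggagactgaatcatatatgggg
SPRY4: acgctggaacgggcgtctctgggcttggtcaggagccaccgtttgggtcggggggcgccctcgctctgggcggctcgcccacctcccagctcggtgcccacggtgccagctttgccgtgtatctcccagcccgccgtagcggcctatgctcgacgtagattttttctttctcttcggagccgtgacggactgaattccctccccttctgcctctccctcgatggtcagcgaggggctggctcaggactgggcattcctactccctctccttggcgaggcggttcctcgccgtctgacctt
The ETS match of SPRY1 starts at position -67 from the transcript start, and the AP-1 match of SPRED2 at position -6. The SPRY1 and SPRY4 windows are rich in G and C (69.3% and 65.0%, with 32 and 26 CpG pairs), whereas the SPRED2 window with the AP-1 match has 39.3% G and C and 4 CpG pairs. The median of all windows is 58.7% and 14 CpG pairs. Which of several start sites WM9 cells use was not measured by the arrays.

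Values are log2 signals after background correction and quantile normalization, with replicate 1 before replicate 2, and a signal counts as above background if it passes its array's mode by more than the upper 1% point of the background spread. Between 17740 and 19452 probes per array passed, and the median raw signal was 365.8 and 369.8 on the DMSO arrays against 231.9 to 315.8 on the PLX4720 arrays, so background level and treatment cannot be told apart. The DMSO replicates also lay further apart than those of any treated group, with a standard deviation of their difference across tested probes of 0.554, against 0.315 to 0.363. All 8 markers of the melanocyte lineage were above background on at least 1 array, with MITF, TYRP1 and SOX10 above it on all 14 and GPR143 on 1. The fibroblast, keratinocyte, endothelial and leukocyte lists had 4 of 6, 2 of 5, 3 of 5 and 3 of 5 measured markers above background on some array, among them COL1A2, LUM, DCN, KRT10 and CD2 on all 14, while COL1A1, COL3A1, KRT5, KRT1, DSG3, VWF, CDH5, PTPRC and CD3E were above it on none. The summed level of the melanocyte list was 16840 to 22060 with DMSO, 17550 to 17600 at 12 h and 33960 to 40510 at 96 h, and that of the fibroblast list was 13310 to 16000 with DMSO against 5809 to 9079 on all treated arrays, in linear normalized units. The sums were 8247 to 10870 with DMSO and 9273 to 12500 with PLX4720 for the keratinocyte list, 482.4 to 521.2 and 454.5 to 720.3 for the endothelial list, and 702.8 to 708.3 and 788.2 to 1041 for the leukocyte list. With DMSO most of the melanocyte, fibroblast and keratinocyte sums came from SOX10, COL1A2 and KRT10 (mean log2 13.78, 13.69 and 13.16). By the test used below, 0 of 7 tested melanocyte markers rose and 2 fell at 12 h, and 5 rose and 1 fell at 96 h. Over all genes 8.46% rose and 7.93% fell at 12 h, and 15.9% and 13.2% at 96 h. The log2 fold change was -2.15 at 12 h and 1.42 at 96 h for TYRP1, and -2.455 and -2.529 for S100B. TYR, called higher at 96 h, was not above background there or with DMSO. The melanocyte sum thus hides opposite changes. At 12 h the log2 fold change against DMSO was -1.38 for COL1A2, -0.32 for LUM, 0.46 for DCN and 0.15 for PDGFRB. Only COL1A2 passed that test at 12 h. At 96 h COL1A2 (log2 -0.81) and PDGFRB (at least 1.51-fold, below background there) were called lower. LUM and DCN (log2 -0.17 and 0.31) were not called at 96 h. The fibroblast sum therefore does not show a shift of the whole list. The part of these shifts in the results below was not tested, and in bulk RNA fewer cells with a transcript cannot be told apart from less of it per cell.

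All 3 Sprouty genes fell far below their DMSO level within 12 h of PLX4720 and had regained at most part of it by 96 h. By their brightest probes SPRY4 fell by 56.9-fold, with 1 of its 2 arrays of 12 h below background, SPRY2 by 19.2-fold, and SPRY1, which left the measurable range, by at least 21.4-fold. In the authors' normalized table the log2 fold changes at 12 h were smaller, at -4.51 for SPRY4 and -3.28 for SPRY1, the latter less than this bound. SPRED1 and SPRED2 fell by 2.23-fold and 2.29-fold, the former in a call that rested on 1 control array. At 96 h the Sprouty genes were still 6.62-fold to 38.8-fold below DMSO by their brightest probes, while SPRED2 was 1.08-fold below it and not called. Of the 10 probes, 8 were above background on at least 2 arrays and were tested. At 12 h all 8 were called lower at a Benjamini-Hochberg adjusted p under 0.05 in limma, a linear model fitted to all 17080 tested probes, where 8.2% of tested probes were called lower. One of the 8, a dim SPRY4 probe, passed the filter only through the DMSO arrays, where it is high, so the count is not evidence about it. All 6 comparisons with DMSO share the same 2 control arrays and are not independent of each other.

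**Figure D1:**
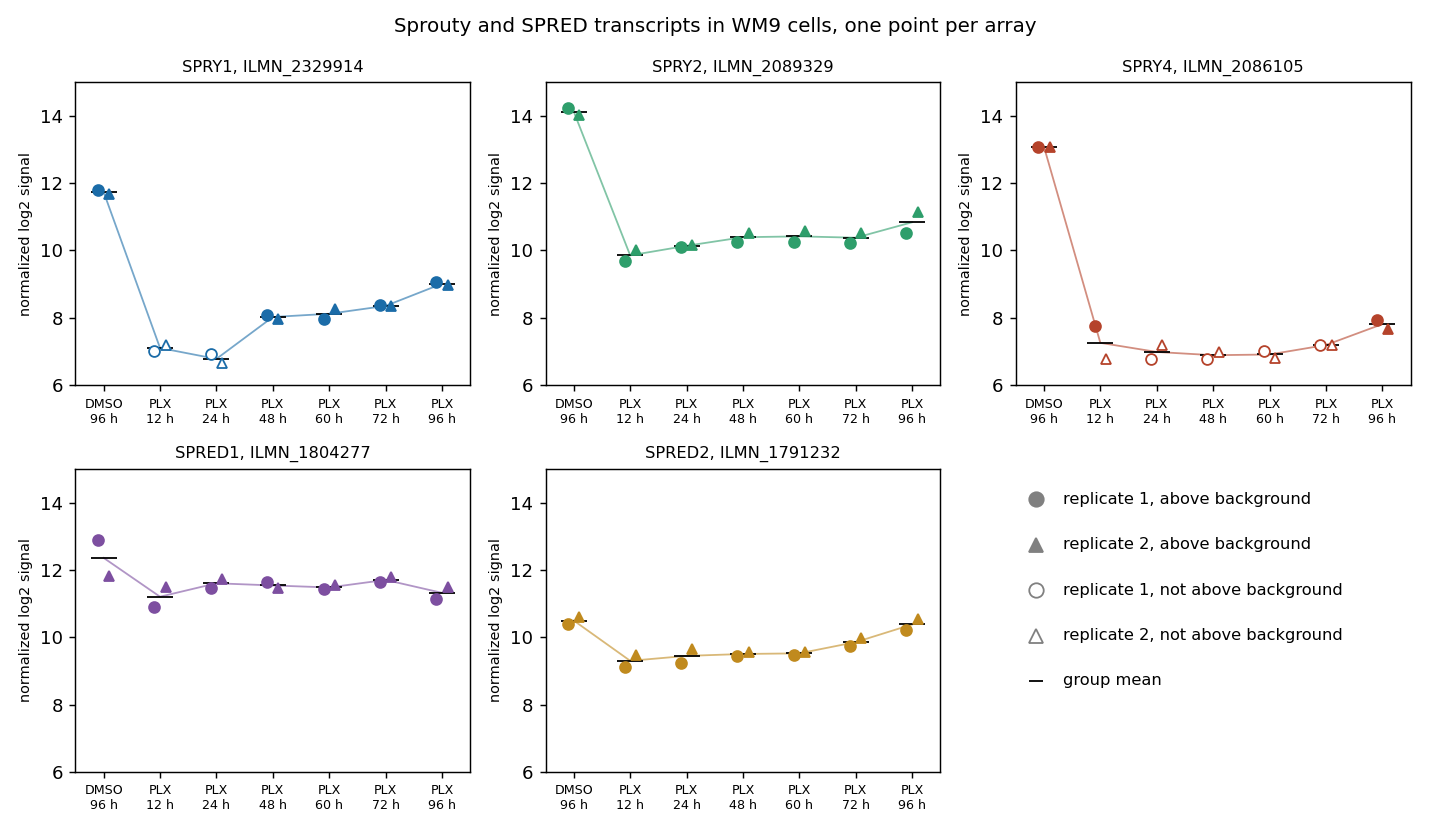
Normalized log2 signal of the brightest probe of each gene on each of the 14 arrays, by group. Circles are replicate 1, triangles replicate 2, open symbols are not above background and bars are group means. The Sprouty genes stand far above all treated arrays with DMSO, while the SPRED2 arrays of 96 h overlap those of DMSO and the DMSO arrays of SPRED1 lie 1.06 apart.

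SPRY2, which in other systems restrains receptor tyrosine kinase signalling and binds CBL, was the Sprouty transcript that stayed measurable throughout. Its single probe, ILMN_2089329, read 14.23 and 14.02 (DMSO), 9.70 and 10.01 (12 h), 10.11 and 10.17 (24 h), 10.26 and 10.53 (48 h), 10.26 and 10.58 (60 h), 10.23 and 10.53 (72 h), and 10.53 and 11.15 (96 h). All 12 treated arrays were thus far below both DMSO arrays, and all 14 were above background. The log2 fold change against DMSO was -4.27 at 12 h (SE 0.23, limma adjusted p = 1.60e-07) and -3.29 at 96 h (adjusted p = 7.61e-07), with values of -3.98 to -3.70 in between. From high to low the group means ran from DMSO over 96 h, 60 h, 48 h, 72 h and 24 h to 12 h. The arrays of 96 h, 60 h, 48 h and 72 h overlapped their neighbours in this order, those of 24 h lay below all of these and those of 12 h lowest. No step between consecutive times was called for SPRY2.

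SPRY2 was higher at 96 h than at 12 h, a comparison that uses no DMSO array. The difference was 1.97-fold (log2 0.98, SE 0.23, adjusted p = 0.00686), and both 96 h arrays were above both 12 h arrays. It rested on single arrays: without replicate 1 of 12 h it was 0.82 (adjusted p = 0.0640) and without replicate 2 of 96 h it was 0.67 (adjusted p = 0.0901). The F test across the 6 treated times, which asks whether a probe differs anywhere among them, gave an adjusted p of 0.0734. It was called for SPRY2 in 6 of 25 alternatives, among them a replicate block (adjusted p = 0.0244) and without replicate 1 of 96 h (0.0360).

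SPRY1, which restrains growth factor receptor signalling in several developing organs, fell below the measurable range and came back into it. Its brightest probe, ILMN_2329914, read 11.81 and 11.67 (DMSO), 7.02 and 7.19 (12 h), and 6.91 and 6.64 (24 h). It then read 8.09 and 7.95 (48 h), 7.96 and 8.28 (60 h), 8.37 and 8.34 (72 h), and 9.06 and 8.96 (96 h). It was not above background on any array of 12 h and 24 h and was above it on every array from 48 h on. Against DMSO the level was at least 21.4-fold lower at 12 h and at least 21.03-fold lower at 24 h, where the fold is a bound computed against the lowest signal above background. It was 13.1-fold lower at 48 h, 12.3-fold at 60 h, 10.5-fold at 72 h and 6.62-fold at 96 h (log2 -2.73, SE 0.18, adjusted p = 4.98e-07). In the authors' normalized table the log2 fold changes of this SPRY1 probe were smaller, at -3.28 at 12 h, -3.38 at 24 h and -2.27 at 96 h, which at 12 h and 24 h is less than the bounds given here.

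SPRY1 rose again among the treated times. From 24 h to 48 h the brightest probe rose by 1.25 on the log2 scale (at least 1.60-fold, adjusted p = 0.00232), with both 48 h arrays above both 24 h arrays. From 12 h to 96 h it rose by 1.91 (at least 3.24-fold, SE 0.18, adjusted p = 6.21e-06), and the F test across treated times gave an adjusted p of 1.17e-05. The group means from high to low ran from DMSO over 96 h, 72 h, 60 h, 48 h and 12 h to 24 h. The arrays of 60 h and 48 h overlapped, and 12 h and 24 h were both below background and so have no order.

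The second SPRY1 probe, ILMN_1691860, went the same way. It read 10.84 and 10.89 (DMSO), 6.80 and 6.94 (12 h), 7.02 and 7.24 (24 h), 7.57 and 7.56 (48 h), 7.73 and 7.86 (60 h), 7.97 and 7.80 (72 h), and 8.63 and 8.40 (96 h). Like the first, it was not above background at 12 h and 24 h and was above it on all later arrays. It fell by at least 11.7-fold at 12 h and was 5.09-fold lower than DMSO at 96 h (log2 -2.35, SE 0.17, adjusted p = 1.03e-06), against log2 values of -2.55 and -1.79 for SPRY1 in the authors' normalized table. It rose by 1.65 on the log2 scale from 12 h to 96 h (at least 2.30-fold, adjusted p = 1.41e-05), and its F test gave 1.43e-04. Its step from 24 h to 48 h was 0.43 and was not called (adjusted p = 0.181). The third SPRY1 probe, ILMN_1769280, was not above background on any array and was not tested.

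SPRY4, an inhibitor of RAS activation downstream of receptor tyrosine kinases, stayed near or below background under PLX4720. At 48 h to 96 h its fall was larger than the measured falls of the other 4 genes, while at 12 h and 24 h SPRY1 gives only a bound and they cannot be ranked. Its brightest probe, ILMN_2086105, read 13.09 and 13.08 (DMSO), 7.75 and 6.76 (12 h), 6.79 and 7.18 (24 h), 6.79 and 6.99 (48 h), 7.01 and 6.81 (60 h), 7.18 and 7.20 (72 h), and 7.94 and 7.68 (96 h). It was above background on both DMSO arrays, on 1 of the 2 arrays of 12 h and on both arrays of 96 h, and on none from 24 h to 72 h. The fall was 56.9-fold at 12 h (log2 -5.83, SE 0.27, adjusted p = 4.54e-08), at least 51.6-fold to at least 54.9-fold from 24 h to 72 h, and 38.8-fold at 96 h (log2 -5.28, adjusted p = 6.25e-08). The size depended on the processing: in the authors' normalized table the SPRY4 log2 fold changes were -4.51 at 12 h, -4.66 to -4.56 from 24 h to 72 h and -4.29 at 96 h, smaller than these bounds.

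The treated times of SPRY4 were not separated by the test. The 96 h mean was 0.56 above the 12 h mean on the log2 scale (95% interval -0.03 to 1.14, adjusted p = 0.151), the arrays of both times overlapped, and the F test gave an adjusted p of 0.110 (0.0266 and 0.0181 without replicate 1 or 2 of 12 h). Without replicate 1 of 12 h, the only array of that time with the probe above background, the difference was 1.04 and was called (adjusted p = 0.00971). In the order of means 96 h was highest after DMSO, and all other treated times were below background on at least 1 array.

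The other SPRY4 probes were dimmer and under PLX4720 mostly below background, so they bound the fall rather than measure it. ILMN_1797596 read 9.09 on average with DMSO (SD 0.16, n = 2) and was called lower at every time, by at least 3.42-fold at 12 h and at least 3.21-fold at 96 h. The size of ILMN_1797596 depended on the processing: among the alternatives the log2 fold change was as small as -1.08 at 12 h and -1.09 at 96 h. Both are less than these bounds, though the calls held in all alternatives. The probe was above background on 1 array at 48 h and on 1 at 72 h, and on no other treated array. ILMN_1688811 read 7.66 with DMSO (SD 0.33, n = 2) and was above background on no treated array. It was called lower at 12, 24 and 72 h, by at least 1.27-fold, at least 1.24-fold and at least 1.21-fold, and because it was tested only through its DMSO level these calls support nothing. Without replicate 2 of DMSO, ILMN_1688811 was not called at 12 h (-0.72, adjusted p = 0.156) and at 72 h (-0.69, adjusted p = 0.167). Its calls also ended at 12 h without replicate 1 or 2 of 12 h (-0.73 and -1.17), at 24 h without replicate 2 of 24 h (-0.88) and at 72 h without replicate 1 of 72 h (-0.64). ILMN_1741168 was above background on no array and was not tested. A probe close to background with DMSO has little room to fall.

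**Figure D2:**
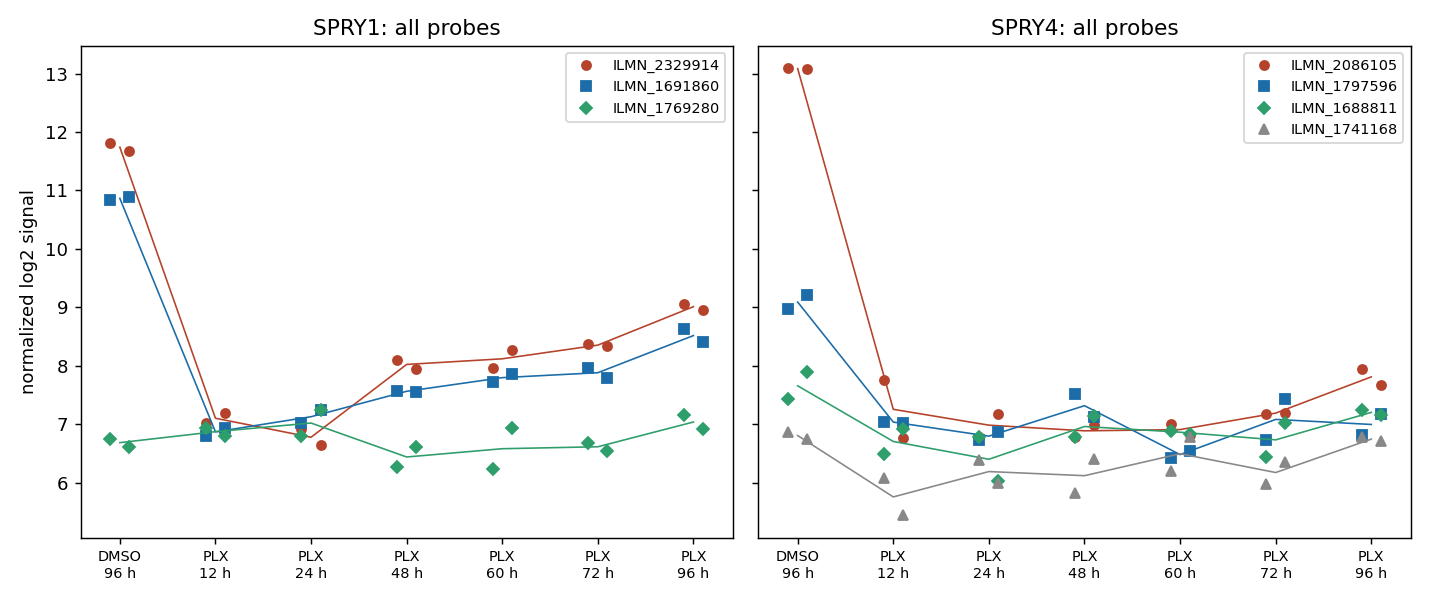
Normalized log2 signal of all probes of SPRY1 (left) and SPRY4 (right) on each array, with 2 points a group for the replicates and lines through the group means. Both measurable SPRY1 probes fall and rise again, while the SPRY4 probes start from different DMSO levels and end close together under PLX4720.

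SPRED1 was abundant on all arrays, and its fall was small and rested on the controls. Its probe, ILMN_1804277, read 12.89 and 11.83 (DMSO), a gap of 1.06 between the replicates. It read 10.91 and 11.50 (12 h), 11.47 and 11.74 (24 h), 11.63 and 11.45 (48 h), 11.42 and 11.54 (60 h), 11.63 and 11.78 (72 h), and 11.15 and 11.49 (96 h). No treated array reached the lower DMSO array, though the highest, at 72 h, came close to it. The log2 fold change was -1.16 at 12 h (SE 0.30, adjusted p = 0.0191), -0.88 at 60 h (adjusted p = 0.0483) and -1.04 at 96 h (adjusted p = 0.0205), and was not called at 24, 48 and 72 h (-0.82 to -0.66). Without replicate 2 of DMSO all 3 were called (-1.28, -1.34 and -1.18, adjusted p = 0.00584, 0.00457 and 0.00795), and without replicate 1 they were -0.23, -0.29 and -0.13.

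The SPRED1 calls at 12, 60 and 96 h did not hold without replicate 1 of DMSO, where the values were -0.63 (adjusted p = 0.113), -0.36 (adjusted p = 0.346) and -0.51 (adjusted p = 0.179). Without replicate 2 of DMSO they were called, with -1.68 at 12 h and -1.56 at 96 h. Leaving out replicate 1 of 12 h also ended the 12 h call (-0.86, adjusted p = 0.151) and leaving out replicate 1 of 96 h the 96 h call (-0.87, adjusted p = 0.128). The 60 h call was lost in 14 of 25 alternatives. Among the treated times the SPRED1 means spanned 0.50, from 11.20 at 12 h to 11.71 at 72 h. The F test did not call it (adjusted p = 0.698), and the difference of 96 h from 12 h was 0.12 with a 95% interval of -0.53 to 0.77.

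SPRED2, the other SPRED gene measured above background, was below the 96 h DMSO level at 12 h and near it at 96 h. Only the 96 h comparison has a control of the same time, so the lower values before it cannot be told apart from time in culture. Its probe, ILMN_1791232, read 10.40 and 10.59 (DMSO), 9.12 and 9.48 (12 h), 9.23 and 9.66 (24 h), 9.45 and 9.56 (48 h), 9.47 and 9.57 (60 h), 9.72 and 9.99 (72 h), and 10.23 and 10.53 (96 h). Every array of 12 h to 72 h was below both DMSO arrays, and those of 96 h overlapped them. The log2 fold change was -1.20 at 12 h (SE 0.21, adjusted p = 0.00181), -1.05 at 24 h, -0.99 at 48 h, -0.97 at 60 h and -0.64 at 72 h (adjusted p = 0.0389), all called. At 96 h it was -0.12 and was not called (adjusted p = 0.715), with a 95% interval of -0.57 to 0.34, which spans 0.675 to 1.26 times the DMSO level.

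SPRED2 rose by 1.08 on the log2 scale from 12 h to 96 h (2.11-fold, SE 0.21, adjusted p = 0.00183), with both 96 h arrays above both 12 h arrays. The F test called SPRED2 (adjusted p = 0.0137), though not without replicate 2 of 96 h. It was also not called when dim probes were kept in the fit (F test adjusted p = 0.057). The group means ran from DMSO over 96 h, 72 h, 60 h, 48 h and 24 h to 12 h. DMSO and 96 h overlapped, as did 60 h, 48 h and 24 h, and 24 h and 12 h, while 72 h lay apart from both its neighbours. The 96 h value depended on the scaling: with each array shifted to a common median over all probes, which moved the median of all tested probes at 96 h to -0.28, the SPRED2 change was -0.56 and was called (adjusted p = 0.0383). The 72 h call ended in 9 of 25 alternatives, among them without replicate 2 of DMSO (-0.54, adjusted p = 0.142) and without replicate 1 or 2 of 72 h (-0.51 and -0.77).

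**Figure D3:**
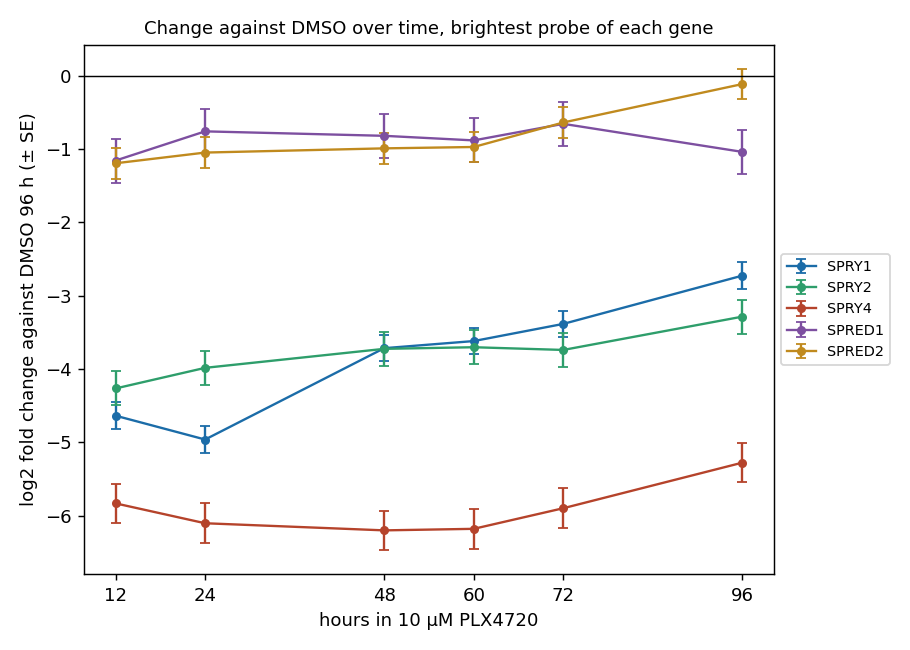
Log2 fold change against DMSO at 96 h of the brightest probe of each gene, by hours in 10 µM PLX4720, with bars of 1 standard error from the fit. SPRY1 at 12 and 24 h and SPRY4 at 24 to 72 h were not above background, so their points there are not measured sizes. SPRED2 reaches -0.12 at 96 h, while the Sprouty genes lie between -5.28 and -2.73.

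Counted over the 8 tested probes, 8, 7, 6, 7, 7 and 6 were called lower than DMSO at 12, 24, 48, 60, 72 and 96 h and none higher. The counts at 12, 24 and 72 h include the dim SPRY4 probe ILMN_1688811, and so do the medians below. That probe was tested only through its DMSO level, so its part in them is not evidence of a fall. The share of all tested probes called lower was 9.36% at 24 h, 10.9% at 48 h, 11.4% at 60 h, 12.4% at 72 h and 13.8% at 96 h. The median log2 fold change of the 8, with probes below background under PLX4720 at their bound (4 at 12 h and 2 at 96 h), was -2.66 at 12 h and -2.02 at 96 h, beside 0.05 and 0.04 over all tested probes. On the log2 scale, the part of the 12 h fall still present at 96 h was 58.8% for both measurable SPRY1 probes, where the 12 h value is at background, 77.1% for SPRY2, 90.5% for the brightest SPRY4 probe, where 1 array of 12 h was below background, 89.8% for SPRED1 and 9.71% for SPRED2. Differences between genes in this share were not tested.

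Few members were called between consecutive treated times, and in the last 3 steps no probe of the whole table was called higher, so a count of 0 says nothing particular about the members. From 12 h to 24 h limma called 0 of 8 probes, where 5.23% of tested probes were called higher. From 24 h to 48 h it called 1, the brightest SPRY1 probe, where 1.94% of tested probes were called higher. From 48 h to 60 h, from 60 h to 72 h and from 72 h to 96 h it called 0 of 8. In each of these steps 0% of tested probes were called higher. The median log2 difference of the 8 probes from 72 h to 96 h was 0.50, beside 0.04 over all tested probes. From 12 h to 96 h, 4 of 8 probes were called higher (both measurable SPRY1 probes, SPRY2 and SPRED2) and none lower, beside 13.8% of tested probes called higher. The F test across the 6 times called 3 of 8, both SPRY1 probes and SPRED2, beside 25.6% of all tested probes.

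The remaining family members were at background. SPRY3 (1 probe) and SPRED3 (2 probes) were above background on none of the 14 arrays, so no level or change can be given for them.

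Some other feedback inhibitors of the pathway, with DUSP6 the most strongly, fell under PLX4720, and others did not pass the test. For each gene its brightest tested probe was used. Of 9 tested genes of other ERK feedback, 5 fell and 0 rose at 12 h, and 4 fell and 0 rose at 96 h, with medians of -0.80 and -0.31 on the log2 scale beside 0.06 and 0.07 over all 12742 genes. With DUSP4, which was below background at 12 h, at its bound, the 12 h median was -0.39. Over all genes 7.93% were called lower and 8.46% higher at 12 h, and 13.2% lower and 15.9% higher at 96 h. DUSP6, a phosphatase that inactivates ERK, fell by 15.7-fold at 12 h (log2 -3.97, SE 0.19, adjusted p = 6.81e-08) and was 8.03-fold lower at 96 h (log2 -3.01, adjusted p = 3.99e-07). ERRFI1, an inhibitor of the EGF receptor family, was 3.13-fold lower at 12 h (log2 -1.65, adjusted p = 5.24e-05) and 4.73-fold lower at 96 h (log2 -2.24, adjusted p = 2.10e-06).

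**Figure D4:**
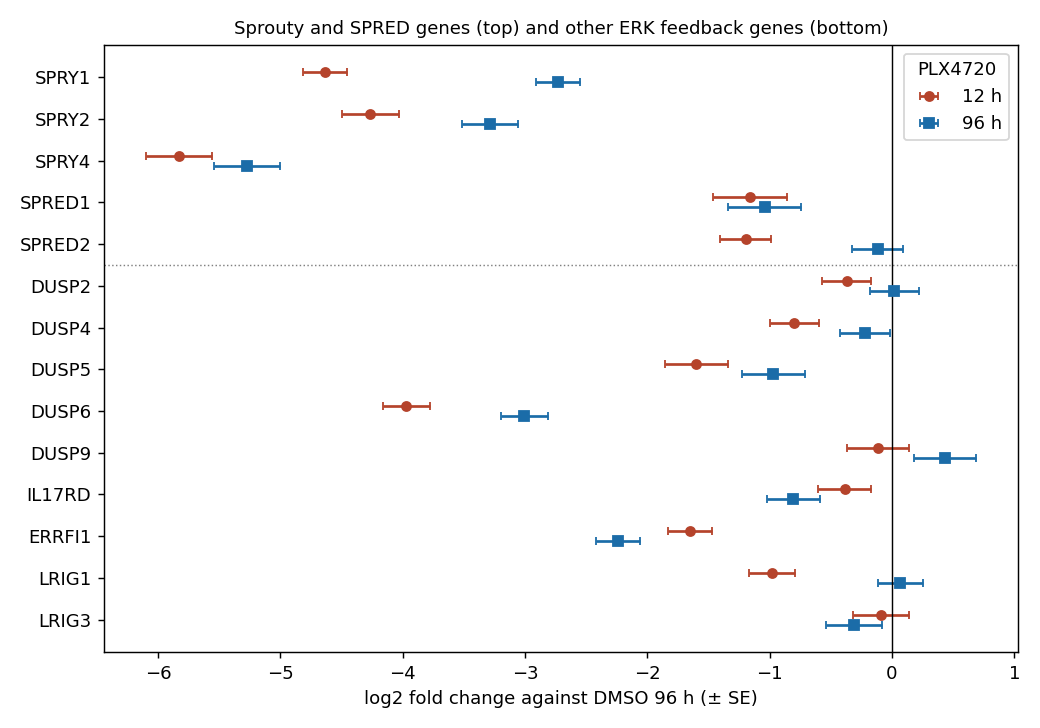
Log2 fold change against DMSO at 12 h (circles) and 96 h (squares) for the brightest probe of the Sprouty and SPRED genes (above the dotted line) and of 9 other ERK feedback genes, with bars of 1 standard error. SPRY1 and DUSP4 at 12 h were not above background and DUSP9 was so on at most 1 array of a group. DUSP6 lies at -3.97 and -3.01, and its 96 h value is within the span of the Sprouty genes at 96 h (-5.28 to -2.73).

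Of 18 tested ERK-induced transcription factors and targets, 13 fell and 0 rose at 12 h, and 14 fell and 1 rose at 96 h, with medians of -1.45 and -0.99 (-1.27 and -0.97 with genes below background in 1 group at their bound). Over all genes 7.93% fell and 8.46% rose at 12 h, and 13.2% fell and 15.9% rose at 96 h, with medians of 0.06 and 0.07. ETV5, an ETS-family transcription factor induced by ERK, fell by 31.3-fold at 12 h (log2 -4.97, SE 0.17, adjusted p = 6.90e-09) and was 13.8-fold lower at 96 h (log2 -3.79). CCND1, which encodes cyclin D1, fell by 11.8-fold at 12 h (log2 -3.56, adjusted p = 6.81e-08). PHLDA2 was 20.0-fold lower at 96 h, where it was above background on 1 of 2 arrays. MAFF, a small MAF transcription factor, was the gene that rose at 96 h, by 1.61-fold (log2 0.69, SE 0.23, adjusted p = 0.0390).

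Of 17 tested binding partners and regulators of the Sprouty and SPRED proteins, 2 rose and 3 fell at 12 h, and 1 rose and 2 fell at 96 h, with medians of -0.03 and 0.16. Over all genes 8.46% rose and 7.93% fell at 12 h, and 15.9% rose and 13.2% fell at 96 h, and nothing particular to the list is read from its counts. CAV1, the caveolae protein caveolin-1, fell by 1.90-fold at 12 h and was 3.03-fold lower at 96 h (log2 -1.60, SE 0.20, adjusted p = 6.54e-05). CBLB, a ubiquitin ligase related to CBL, was 2.21-fold lower at 96 h (adjusted p = 6.19e-04). SOS1, which loads RAS with GTP, rose by 2.08-fold at 12 h (adjusted p = 0.0402), from a control above background on 1 of 2 DMSO arrays. MKNK1, a kinase activated by ERK, rose by 1.65-fold at 12 h and 1.44-fold at 96 h. CBL fell by 1.58-fold at 12 h with its brightest probe (adjusted p = 0.0316), and its other tested probe pointed the other way. NF1, which encodes the RAS-inactivating partner of the SPRED proteins, had log2 fold changes of -0.30 at 12 h and -0.06 at 96 h and was not called (adjusted p = 0.397 and 0.869). It was not chosen by the rule for named genes but for this role.

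Of the 3 tested RAS GTPase activating proteins, which switch RAS off as neurofibromin does, 1 rose and 2 fell at 12 h, and 1 rose and 1 fell at 96 h, with medians of -0.95 and -0.53 (-0.50 and -0.41 with RASA2 at its bound). Over all genes 8.46% rose and 7.93% fell at 12 h, and 15.9% rose and 13.2% fell at 96 h. With 3 genes, nothing particular to the list is read from its counts. RASAL2 rose by 2.48-fold at 12 h (log2 1.31, SE 0.21, adjusted p = 0.00105) and was 2.38-fold higher at 96 h, where 1 of its 3 tested probes pointed the other way. RASA3 fell by 3.65-fold at 12 h (log2 -1.87, adjusted p = 6.46e-05). RASA2, which was below background at 12 h, was at least 1.41-fold lower there (adjusted p = 0.0311).

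The genes most like each member in time course were found as a description, by the root mean square difference of the 6 log2 fold changes against DMSO among 10515 genes above background on both DMSO arrays. All these values share the DMSO arrays, and those of SPRY1 at 12 and 24 h and of SPRY4 at 24 to 72 h are at background, so the order of genes near them rests partly on unmeasured sizes. SPRY1 and SPRY2 were each other's nearest gene (0.51), followed by CCND1 (0.64) and OLIG2 (0.81) for SPRY1, and by SLC67A1-AS (0.54) and CYP51A1 (0.60) for SPRY2. The nearest to SPRY4 was ETV5, at the larger distance of 1.21, then VIPR1 (1.64) and TIMP3 (1.66). SPRED1 was nearest to GRAMD2B (0.14), ZNF226 (0.15) and CHSY1 (0.15), and SPRED2 to ZSWIM4 (0.15), UBALD2 (0.19) and ACP7 (0.20). When likeness was taken over the 5 differences from 12 h instead, which use no DMSO array, none of these genes was among the 3 nearest of any member.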

How the data were processed

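Probe signals of 14 arrays (2 in each of 7 groups, assigned from the labels) were analysed. The deposited unnormalized table holds linear intensity values, per the file headers, and its detection columns were empty. The deposited normalized table holds log2 values that the authors had quantile normalized, as the values show, and served as an alternative. For scanner and software the sources used here give no name. Intensities were corrected with normexp (offset 16), converted to log2 and quantile normalized, and fitted jointly for the 7 groups (limma 3.58.1, R 4.3.3) with 7 residual and 5.92 prior degrees of freedom. The tests are two-sided, with Benjamini-Hochberg adjustment within each comparison at 0.05 over the 17080 probes with 1 gene symbol that were above background on at least 2 arrays. The fit was tested on simulated data. A probe above background on neither array of a group gives only a bound. Gene names come from the platform annotation, updated through RefSeq, and promoter sequences from RefSeq for GRCh38.p14. Named were all member probes, SPRY3 and SPRED3, and from each gene list the 2 largest called rises and falls at 12 h and 96 h. Members and lists were chosen with earlier results of these data known. Alternatives changed the background correction, scaling, probe filter, probe choice, weights, prior and block, or left out 1 array, and a scaling over tested probes was added after seeing the data. The number of arrays limits the precision.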

Additional observations from a re-analysis of the deposited data

Results flagged for a closer look

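By the test of 96 h against 12 h, in which the DMSO arrays cancel, 4 of the 8 tested probes were called higher at 96 h. This compares with 13.8% of all tested probes, a share that counts rises on either side of the DMSO level. The means of all 4 were below DMSO at both times, so their difference from DMSO was smaller at 96 h. The log2 fold change of SPRY1 was higher at 96 h by 1.91 with ILMN_2329914 and by 1.65 with ILMN_1691860 (limma adjusted p = 6.21e-06 and 1.41e-05, both 96 h arrays above both 12 h arrays), and both probes were below background at 12 h. That of SPRY2 was higher by 0.98 (adjusted p = 0.00686) and that of SPRED2 by 1.08 (adjusted p = 0.00183), again with both 96 h arrays above both 12 h arrays. The SPRY2 call was lost without replicate 1 of 12 h (adjusted p = 0.0640) and without replicate 2 of 96 h (0.0901).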

How the results depend on the processing

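No member result that was called in the main fit or in an alternative had the other sign there, in up to 25 alternatives. Some uncalled differences did change sign, such as SPRED2 at 96 h against DMSO (-0.12, and up to 0.03 among the alternatives). The count of called member probes moved by over 1.5 times only where fewer probes could be counted, and at 96 h against 72 h. Requiring signal above background on at least 7 arrays left 5 member probes, none of them of SPRY4. Of these, 5 were called at 12 h, 4 at 24 h and 4 at 72 h. With 1 probe a gene, which keeps SPRY4, the counts were the same. At 96 h against 72 h, array weights called 1, and leaving out 1 array gave 0 to 2, with 2 (both SPRY1 probes) without either DMSO array. With a replicate block the counts of member probes called against DMSO were 8, 7, 6, 6, 7 and 6 from 12 h to 96 h. That of 96 h against 12 h was 4 and that of the F test 4. The share of all tested probes called was not counted in the alternatives, so nothing particular to the members is read from these counts. The counts against DMSO again include SPRY4 ILMN_1688811, tested only through its DMSO level, at 12, 24 and 72 h. The block ended the call of SPRED1 at 60 h (adjusted p = 0.0526) and added SPRY2 to the F test (0.0244). The labels do not tie the numbers to a shared experiment. The differences between replicates correlated at 0.17 to 0.42 in all 15 pairs of treated groups, a hint from the data that the treated arrays are paired, and at -0.19 to 0.39 with DMSO. Array weights ended the calls of SPRED1 at 12, 60 and 96 h and of SPRED2 at 72 h (adjusted p = 0.0733, 0.125, 0.0685 and 0.172), and of SPRY4 ILMN_1688811 at 12, 24 and 72 h (0.222, 0.0732 and 0.153). Without the dim-probe filter, SPRED1 lost its calls at the same times (0.0585, 0.116 and 0.0566). That setting also ended the calls of SPRED2 at 72 h and in the F test (0.104 and 0.057). It ended those of SPRY4 ILMN_1688811 at 12 and 72 h (0.09455 and 0.07475). Median scaling moved the median of all tested probes against DMSO to -0.28 at the lowest and -0.13 at the highest and called SPRED1 at 24, 48 and 72 h (-1.06, -1.11 and -1.01). In the authors' normalized table member values differed from those given by up to 1.59 on the log2 scale.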
